A study of Homo sapiens with 18 samples.

Results

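Genes of autophagy and of lysosome acidification and digestion were followed in 18 RNA-seq libraries of HEK293T, a human embryonic kidney cell line. Of the 28394 genes in the count table, 76 were taken by symbol. They were the subunit genes of the vacuolar proton pump (ATP6V0 and ATP6V1), the ATG genes, the ULK kinases, WIPI1 and WIPI2, BECN1, the ATG8 family (MAP1LC3 and GABARAP genes), the cathepsins, LAMP1 and LAMP2, and the transcription factors TFEB and TFE3. Pseudogenes and antisense genes named as such were left out by their symbols. The rule uses symbols only, but it was chosen with earlier results of these data known. Of the 76 members, 64 had enough counts to be tested, among 15332 genes tested in all.

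The study asked whether a stretch of poly-adenylate in a reporter, on which ribosomes stall, changes the transcriptome in the way that a run of 102 proline-arginine dipeptide repeats (102xPR) does. Each of 3 stable HEK293T lines carried 1 construct behind a promoter switched on by doxycycline: GFP-P2A-102xPR, GFP-P2A-poly-adenylate or, as the negative control, GFP-P2A-ChFP. Cells were uninduced or induced for 48 h with doxycycline at 500 ng/μl, the dose and unit that the labels state, and each of the 6 groups had 3 libraries. Uninduced cells carried the same construct and received no inducer, so induced against uninduced cells of a line differ in doxycycline and in the construct's expression together. Each construct is represented by 1 stable line, and the labels do not say whether a line is a clone or whether replicates were separate cultures. The p-values therefore measure only the spread between these libraries, which may be technical.

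In autophagy, the ULK kinase complex starts a membrane sheet, a lipid kinase complex with beclin 1 marks it, ATG9 and ATG2 proteins supply lipid, and WIPI proteins bind the marked membrane. Conjugation enzymes then attach ATG8 proteins (LC3 and GABARAP) to the sheet, which closes around cargo and fuses with a lysosome. There the V-ATPase pumps protons inwards, with a V1 sector that hydrolyses ATP and a V0 sector in the membrane, and the acid activates cathepsins. TFEB and TFE3 bind E-box motifs in promoters of many of these genes and are held in the cytoplasm by mTORC1 when nutrients are ample.

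Library totals ran from 15020739 to 27331102 counts, and levels are given as CPM, a gene's counts scaled to a common library total. By the sign of the second principal component (7.56% of the variance) the libraries form a set of 8 and another of 10, which no label marks and which cross the groups. In the set of 8 were every uninduced ChFP library, 1 induced ChFP library (replicate 3), 2 uninduced poly-adenylate libraries (replicates 2 and 3) and 2 induced 102xPR libraries (replicates 1 and 2). All 7 HEK293T genes checked were above 1 CPM on average in each group. They summed to 971 to 1020 CPM in induced 102xPR libraries and to 755 to 860 CPM in the others. In the 102xPR line INA and VIM rose, by 1.93 and 0.53 on the log2 scale, PAX2 fell by 0.31 and 4 were not called. In the ChFP line 1 of the 7 was called higher on induction. The 9 macrophage markers, which matter here because macrophages are rich in lysosomes, summed to 3.6 to 7.08 CPM per library, with AIF1 at 0 counts in every library. Within that range the induced 102xPR libraries were highest, at 5.87 to 7.08 CPM, and the 7 fibroblast markers were lowest there, at 17.1 to 17.7 CPM against 25.4 to 34.1 CPM in the other groups. All 5 fibroblast markers tested were called in the 102xPR line, 4 lower and PDGFRB higher, at 1.61 ± 0.39, with a median of -1.10. In that line 67.5% of all genes tested were called. Of the 3 macrophage markers tested, CSF1R was called in the 102xPR line, at 3.73 ± 0.53, from 0.0369, 0.04 and 0.108 to 0.7, 1.05 and 0.698 CPM. The part of these markers in the results was not tested.

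The members made up a smaller part of the mRNA in induced 102xPR cells than in any other group. They took 0.381% to 0.404% of all counts in the 3 induced 102xPR libraries and 0.438% to 0.447% in the 3 uninduced ones. In the 12 libraries of the other lines the share was 0.41% to 0.442%. The induced 102xPR libraries were thus the lowest and did not overlap with the other 15. Such shares are relative to the rest of the mRNA, and in bulk samples fewer cells of a type and less RNA per cell cannot be told apart.

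Induction of 102xPR changed most of the tested members, downward more often than upward. By the quasi-likelihood test of edgeR, with p adjusted by Benjamini-Hochberg over all genes tested (threshold 0.05), 15 of 64 members rose and 33 fell. Over all genes tested, 34.0% rose and 33.4% fell, 67.5% in all, so the members' 48 calls stand against a background in which most genes moved. The median log2 fold change was -0.20 for the members and -0.01 for all genes tested, and the members ranged from -1.54 to 1.34. Changes of at least 0.5 on the log2 scale were upward in 6 members and downward in 14, against 18.8% and 16.4% of all genes. For 53 members, among them all 48 called, the induced and uninduced libraries did not overlap, compared with 70.2% of all genes tested. In 44 members the 3 induced 102xPR libraries lay outside the range of all 15 other libraries, compared with 52.8% of all genes.

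The calls in the 102xPR line are given by the members' roles. Cathepsin and LAMP genes and the V0 genes of the pump were called only in the downward direction, and the conjugation genes mostly in the upward one. Of 13 tested cathepsin and LAMP genes 12 fell and 0 rose by edgeR (median -0.69), with 0 higher by DESeq2 or at an unadjusted p below 0.05. Of 7 V0 genes 5 fell and 0 rose by the same 3 counts (-0.44), and of 12 genes with a V1 symbol, ATP6V1FNB among them, 7 fell and 3 rose (-0.22). Of 11 conjugation genes 5 rose, 1 fell and 5 were not called (0.11), and of 5 ATG8 genes 3 rose and 2 fell (0.12). Of 6 genes of the ULK group 2 rose and 1 fell, and of 8 genes of nucleation and lipid supply 1 rose and 4 fell. Over all genes tested, 34.0% rose and 33.4% fell. The 33.3% of the ULK group that rose was near the first of these shares. These are counts and medians of groups named by role, and no test was made of one group against another or against all genes.

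**Figure D1:**
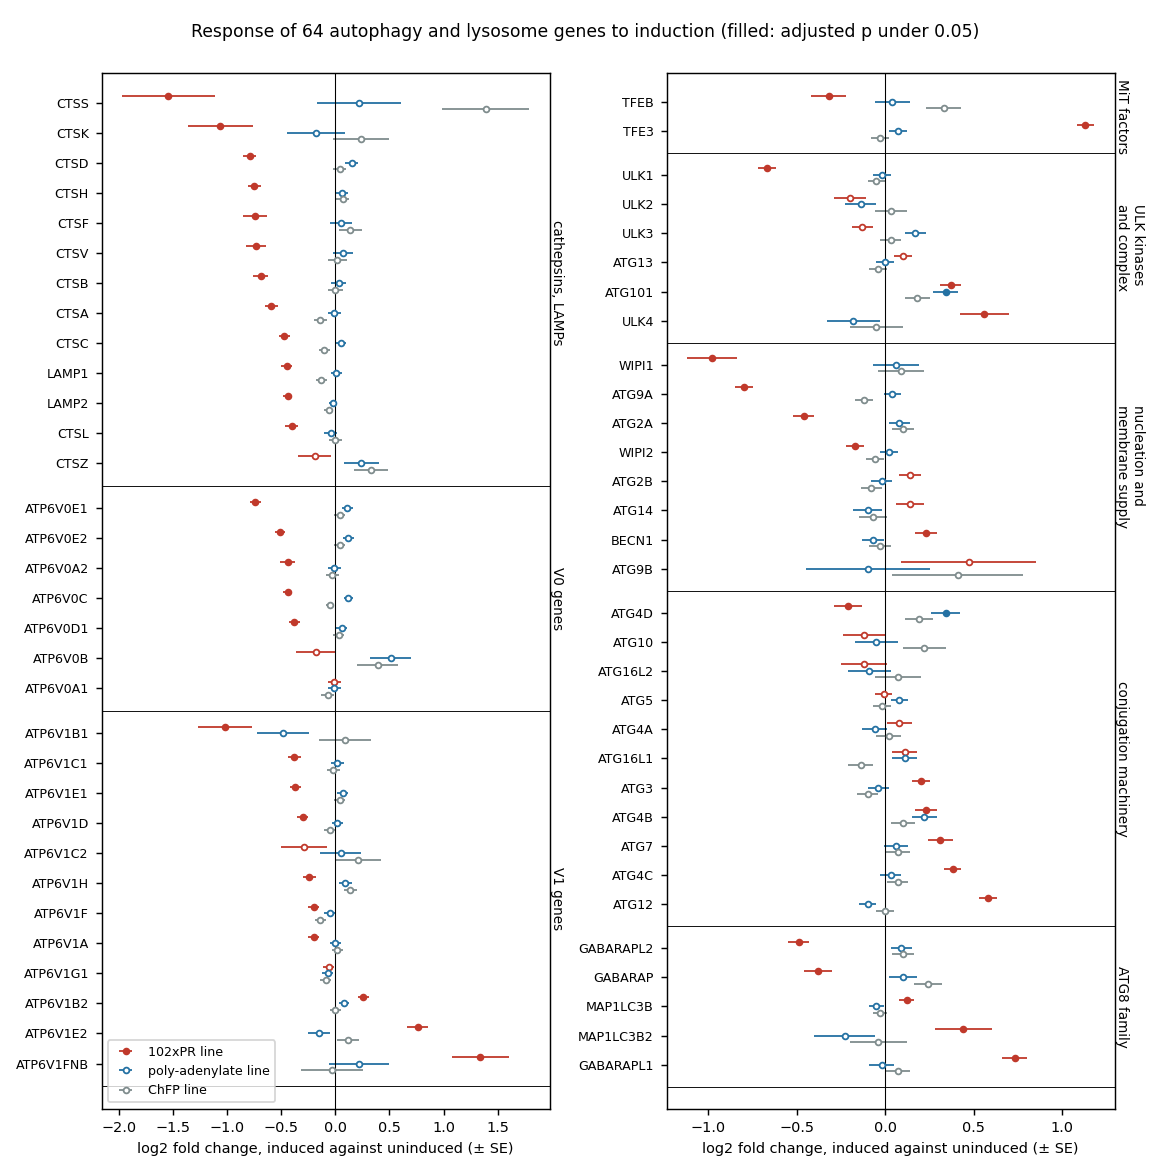
Log2 fold change, induced against uninduced, of each tested member in the 102xPR, poly-adenylate and ChFP lines, ordered by role, with bars of 1 standard error and filled points for members called by edgeR at an adjusted p below 0.05. In the 102xPR line the cathepsin and LAMP genes lie on the negative side, while in the other lines most members lie near 0.

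Cathepsins D, B and A and the LAMP proteins are main constituents of the lysosome, and their mRNAs fell together in induced 102xPR cells. The summed level of the 17 cathepsin and LAMP genes, of which 13 were tested, was 873, 861 and 880 CPM in the uninduced and 568, 576 and 602 CPM in the induced 102xPR libraries. In the other lines the sum was 810, 839 and 783 CPM in induced ChFP, 826, 818 and 835 CPM in uninduced ChFP, 842, 844 and 844 CPM in induced poly-adenylate and 836, 810 and 814 CPM in uninduced poly-adenylate libraries. Every induced 102xPR library was below all others, and in the ChFP line induced and uninduced libraries overlapped. In the poly-adenylate line they did not overlap, and the induced sums were the higher ones.

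CTSD (GRCh38.p14 chr11:1752755-1763927) encodes the main aspartic protease of lysosomes. Its level was 220, 206 and 209 CPM in the uninduced and 116, 119 and 132 CPM in the induced libraries, a log2 fold change of -0.79 ± 0.06 (SE; edgeR, adjusted p = 4.87e-11). All 3 induced libraries were below every other library, since the 12 libraries of the ChFP and poly-adenylate lines held 166 to 203 CPM. CTSB (chr8:11842524-11868087), a cysteine protease, was at 97.1, 92.6 and 85.6 CPM in the uninduced and 61.7, 52.8 and 56.1 CPM in the induced libraries, a change of -0.69 ± 0.07. CTSH (chr15:78921058-78945046), a cysteine protease that trims peptides from the amino end, was at 37.4, 34.3 and 35.6 CPM in the uninduced and 21.3, 21 and 21.8 CPM in the induced libraries, a change of -0.75 ± 0.06. For both, the induced 102xPR libraries again lay below the other 15.

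CTSA (chr20:45891335-45898820) encodes a serine carboxypeptidase that also protects lysosomal β-galactosidase and neuraminidase. It stood at 60.3, 59.1 and 63.6 CPM in the uninduced and 39.8, 43.1 and 38.3 CPM in the induced libraries, a change of -0.59 ± 0.06. CTSV (chr9:97029677-97039643), a close relative of CTSL, was at 31.5, 31.1 and 34 CPM in the uninduced and 17.9, 19.3 and 20.9 CPM in the induced libraries, a change of -0.73 ± 0.09. CTSF (chr11:66563464-66568606), another cysteine protease, was at 13.8, 13.1 and 12.2 CPM in the uninduced and 7.32, 8.22 and 7.92 CPM in the induced libraries, a change of -0.74 ± 0.11. In each of these genes the 3 induced libraries were below all other libraries of the study.

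CTSK and CTSS, known from osteoclasts and from antigen-presenting cells, were near the lower limit of what was tested. CTSK (chr1:150796208-150808260) was at 1.62, 0.961 and 1.56 CPM in the uninduced and 0.653, 0.755 and 0.548 CPM in the induced libraries, a change of -1.06 ± 0.30 (edgeR, adjusted p = 0.00304). CTSS (chr1:150730188-150765778) was at 0.406, 0.44 and 0.538 CPM in the uninduced and 0.14, 0.168 and 0.15 CPM in the induced libraries, a change of -1.54 ± 0.43 (edgeR, adjusted p = 0.00286) on 32 and 10 counts in all. The groups did not overlap in either gene, but for CTSS the other lines reached down to 0.164 CPM and so into the induced range. Among the 10 libraries of 1 set, only 1 induced 102xPR library is left. Any fit there takes its spread from the replicated groups and assumes that the lone library varies as they do. CTSS was then at -1.57 ± 0.73 and no longer passed (edgeR, adjusted p = 0.0707).

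The remaining 5 tested genes of the group had log2 values under 0.5 in size, and 4 of them fell. CTSC, a dipeptidyl peptidase that activates granule proteases, fell by 0.47, and CTSL, a broad cysteine protease, fell by 0.40. LAMP1 and LAMP2, the heavily glycosylated proteins of the lysosomal membrane, fell by 0.45 and 0.44. LAMP1 was at 74, 72.5 and 72.6 CPM in the uninduced and 52, 56.5 and 52 CPM in the induced libraries, and LAMP2 was at 186, 200 and 207 CPM in the uninduced and 143, 144 and 150 CPM in the induced libraries. Neither overlapped with any other group, and the counts do not separate the LAMP2 isoforms. CTSZ, a carboxypeptidase, was the exception, at 2.88, 2.32 and 2.53 CPM in the uninduced and 2.66, 2.06 and 2.09 CPM in the induced libraries, a difference of -0.19 ± 0.15 that did not pass and whose groups overlapped.

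**Figure D2:**
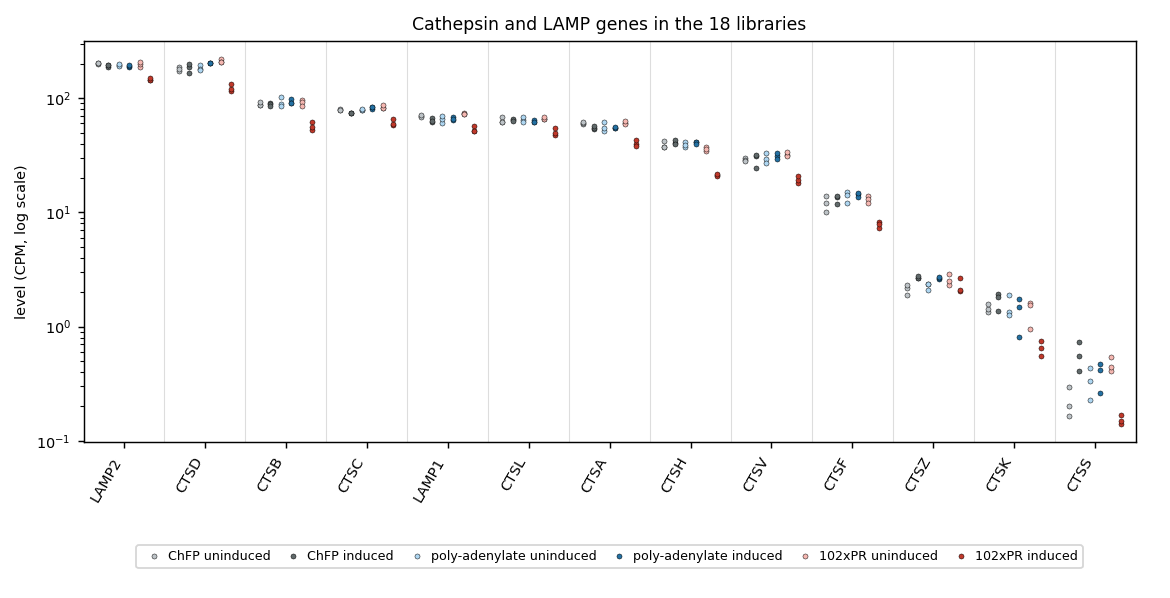
CPM of the 13 tested cathepsin and LAMP genes on a log axis in each of the 18 libraries, coloured by group, with 1 point per library. In the induced 102xPR column CTSD sits at 116 to 132 CPM and LAMP1 at 52 to 56.5 CPM, below the points of all other groups.

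Promoter sequences are shown because TFEB and TFE3, members themselves, are known to act at E-boxes in this region. RefSeq windows (GRCh38.p14, 250 bases before to 50 after the start) were matched for 58 of the 76 members, 51 of them tested. The extended E-box TCACGTGA was in 5 of 51 windows (9.8%), against 0.98% of all 35116 windows and 1.75% of the 12083 windows of tested genes. The shorter CACGTG, which is contained in TCACGTGA, was in 11 of 51 (21.6%), against 7.26% and 9.95%. Both motifs read the same on both strands. The sequence TTGCATCA, an element of the ATF4 and C/EBP kind searched on both strands, was in 0 of 51, against 0.866% and 0.472%, which says only that these letters are not in these windows.

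Of the 5 genes with TCACGTGA, CTSA, LAMP1 and ATP6V0D1 fell in induced 102xPR cells, ATG3 rose, and ATP6V1G1 was not called. Of the 11 with CACGTG, 6 fell, 1 rose and 4 were not called. Of all tested members 51.6% fell and 23.4% rose, and of all genes tested 33.4% fell and 34.0% rose. Both directions thus occur among genes with the motif. The 250 bases before the start of 4 genes that fell are printed 5′ to 3′ on the gene's strand, with CACGTG or TCACGTGA in capitals. They are chr20:45891085-45891334 (plus strand) for CTSA, chr13:113296989-113297238 (plus) for LAMP1, chr16:67481158-67481407 (minus) for ATP6V0D1 and chr11:1763928-1764177 (minus) for CTSD.
CTSA: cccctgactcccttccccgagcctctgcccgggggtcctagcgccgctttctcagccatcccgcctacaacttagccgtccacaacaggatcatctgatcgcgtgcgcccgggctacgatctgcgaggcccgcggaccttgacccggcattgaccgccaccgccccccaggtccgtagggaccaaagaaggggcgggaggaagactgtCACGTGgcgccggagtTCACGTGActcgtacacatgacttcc
LAMP1: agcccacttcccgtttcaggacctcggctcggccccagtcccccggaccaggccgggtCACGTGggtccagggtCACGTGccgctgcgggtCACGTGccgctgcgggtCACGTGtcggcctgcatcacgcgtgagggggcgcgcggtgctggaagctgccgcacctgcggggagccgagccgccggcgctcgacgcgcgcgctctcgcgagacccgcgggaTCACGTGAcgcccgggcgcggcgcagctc
ATP6V0D1: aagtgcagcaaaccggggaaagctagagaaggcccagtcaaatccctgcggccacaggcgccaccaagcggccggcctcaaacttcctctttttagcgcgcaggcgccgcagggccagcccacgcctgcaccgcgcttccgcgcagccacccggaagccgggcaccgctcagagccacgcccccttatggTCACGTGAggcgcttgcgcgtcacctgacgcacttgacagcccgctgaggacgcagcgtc
CTSD: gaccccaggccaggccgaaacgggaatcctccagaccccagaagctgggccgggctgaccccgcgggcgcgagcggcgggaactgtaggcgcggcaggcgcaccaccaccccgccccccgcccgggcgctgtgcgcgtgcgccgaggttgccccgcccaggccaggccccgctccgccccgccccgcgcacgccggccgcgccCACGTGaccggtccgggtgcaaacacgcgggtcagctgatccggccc
A match describes letters and is neither a measured binding site nor a cause.

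Most V-ATPase genes of higher level fell, with exceptions. Among the 15 subunit genes with a mean of at least 10 CPM, 11 fell, by log2 values from -0.20 to -0.74, 1 rose and 3 were not called. Over all genes tested, 33.4% fell and 34.0% rose. Genes with more counts are called more easily, and the share among all genes of that level was not computed. The V0 genes summed to 1020, 970 and 1000 CPM in the uninduced and 749, 744 and 805 CPM in the induced 102xPR libraries. The genes with a V1 symbol, ATP6V1FNB among them, summed to 915, 907 and 952 CPM and to 810, 825 and 832 CPM. Neither pair overlapped.

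In V0, the e subunit had the steepest change. ATP6V0E1 (chr5:172983771-173035445) was at 99.8, 91.8 and 96.3 CPM in the uninduced and 57.7, 59.2 and 54.8 CPM in the induced libraries, a change of -0.74 ± 0.05 (edgeR, adjusted p = 1.22e-11). ATP6V0E2 (chr7:149872964-149880713), the second gene for this subunit, was at 170, 156 and 167 CPM in the uninduced and 111, 117 and 118 CPM in the induced libraries, a change of -0.51 ± 0.05. In both genes the induced 102xPR libraries were the lowest 3 of 18. ATP6V0C, the proteolipid that forms most of the rotating ring, was at 327, 312 and 316 CPM in the uninduced and 239, 230 and 235 CPM in the induced libraries, a change of -0.44 ± 0.04. This gene has pseudogene copies, so its counts carry some uncertainty. ATP6V0D1, which joins the ring to the stalk, fell by 0.38 to 88.3, 88.2 and 89.7 CPM.

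The a subunit, which directs the pump to a compartment, had 3 genes that were tested. ATP6V0A2 was at 51, 58.1 and 57.1 CPM in the uninduced and 39.5, 38.4 and 44.8 CPM in the induced libraries, a change of -0.44 ± 0.07, and its induced libraries were below all others. ATP6V0A1 was at 77.4, 80.4 and 81.6 CPM in the uninduced and 80.4, 79.5 and 78.1 CPM in the induced libraries, a difference of -0.01 ± 0.06 that did not pass, with overlapping groups. Per kilobase of exon the uninduced 102xPR cells held 7.28 CPM of ATP6V0A1 and 4.04 CPM of ATP6V0A2. The difference between these 2 responses was not tested. TCIRG1, the a subunit known from osteoclasts, lies outside the chosen symbols and was added after its values were seen. It was at 4.8, 5.24 and 4.73 CPM in the uninduced and 4.66, 3.36 and 3.74 CPM in the induced libraries, a difference of -0.33 ± 0.18 that did not pass, although its groups did not overlap.

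ATP6V0B, another proteolipid of the ring, differed between the 2 library sets. Outside the 102xPR line the libraries of the set of 8 held 98.3 to 107 CPM and those of the set of 10 held 148 to 177 CPM. In the 102xPR line it was at 181, 161 and 168 CPM in the uninduced and 133, 132 and 184 CPM in the induced libraries, a difference of -0.18 ± 0.18 that did not pass. The highest induced value, in replicate 3, came from the set of 10, and the 2 others from the set of 8. With the set as a covariate its value turned to 0.16 ± 0.05 and passed (edgeR, adjusted p = 0.00536), so no direction is given for this gene.

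In V1, the catalytic A subunit fell slightly and the main B subunit rose. ATP6V1A was at 124, 125 and 130 CPM in the uninduced and 107, 108 and 116 CPM in the induced libraries, a change of -0.20 ± 0.05, which among the 10 libraries of 1 set no longer passed (-0.13 ± 0.06; edgeR, adjusted p = 0.10). ATP6V1B2, the B subunit of most tissues, was at 75.3, 87.8 and 82.1 CPM in the uninduced and 96.2, 94.7 and 102 CPM in the induced libraries, a change of 0.26 ± 0.05, and all induced libraries were above the other 15. ATP6V1B1 (chr2:70935900-70965431), the B subunit of kidney and inner ear, was at 1.66, 2.28 and 1.56 CPM in the uninduced and 1.17, 0.713 and 0.847 CPM in the induced libraries, a change of -1.02 ± 0.25. Its groups did not overlap within the line but reached into the range of the other lines (1.03 to 2.14 CPM). Per kilobase, ATP6V1B1 was at 0.681 CPM and ATP6V1B2 at 10.5 CPM in uninduced 102xPR cells, so the B2 gene gave most of the transcript.

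The stalk subunits again had members in both directions. ATP6V1E2 (chr2:46511847-46542577), an E subunit known from testis, was at 6.68, 6.77 and 7.26 CPM in the uninduced and 11.9, 11.9 and 11.2 CPM in the induced libraries, a change of 0.76 ± 0.10 (edgeR, adjusted p = 2.32e-07). The broadly expressed ATP6V1E1 was at 132, 125 and 136 CPM in the uninduced and 102, 96.7 and 105 CPM in the induced libraries, a change of -0.37 ± 0.05. All induced libraries were the highest of 18 for ATP6V1E2 and the lowest for ATP6V1E1. Per kilobase the E1 gene was at 40.8 CPM in uninduced and 31.4 CPM in induced cells, and the E2 gene at 1.31 and 2.21 CPM.

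The other V1 genes moved in the downward direction or were not called. ATP6V1C1, whose subunit detaches when the pump comes apart, fell by 0.38. ATP6V1D and ATP6V1F, of the central rotor, fell by 0.30 and 0.20, and the regulatory ATP6V1H fell by 0.24. Among the 10 libraries of 1 set ATP6V1H no longer passed (-0.15 ± 0.08; edgeR, adjusted p = 0.102). ATP6V1G1, a peripheral stalk subunit, was at 157, 148 and 159 CPM in the uninduced and 145, 151 and 149 CPM in the induced libraries, a difference of -0.06 ± 0.05, and ATP6V1C2 at -0.29 ± 0.21, neither of which passed. ATP6V1FNB (chr7:128866330-128872047), a neighbour of ATP6V1F that is named for its place and is not a pump subunit, was at 0.886, 0.48 and 0.592 CPM in the uninduced and 1.77, 1.47 and 1.84 CPM in the induced libraries, a change of 1.34 ± 0.26. Its induced libraries were above all others, though at under 2 CPM.

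**Figure D3:**
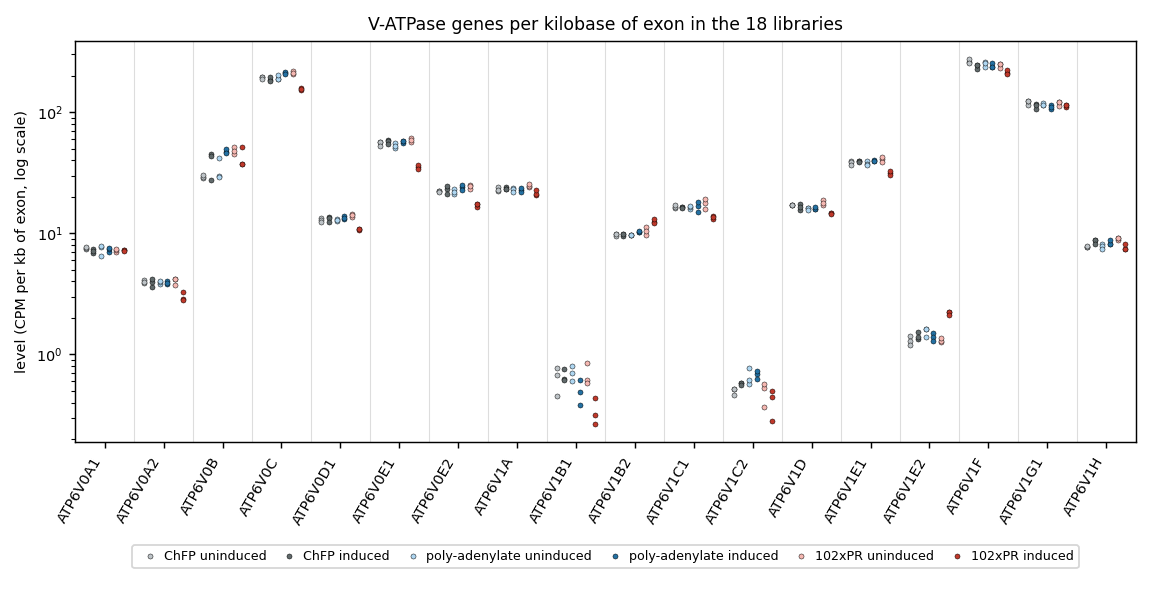
Level of each V-ATPase gene with a mean of at least 1 CPM, in CPM per kilobase of exon on a log axis, in the 18 libraries coloured by group, 1 point per library. Mean ATP6V1E1 goes from 40.8 to 31.4 CPM per kilobase on induction of 102xPR, while ATP6V1B2 and ATP6V1E2 are higher in the induced libraries of that line.

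Of the transcription factors, TFE3 rose, with the smallest adjusted p of all members. TFE3 (chrX:49028726-49043357) was at 60.4, 59.1 and 57.5 CPM in the uninduced and 132, 129 and 125 CPM in the induced libraries, a 2.18-fold and log2 change of 1.13 ± 0.05 (edgeR, adjusted p = 5.19e-15). The 12 libraries of the other lines held 52.2 to 60.5 CPM, so the 3 induced 102xPR libraries stood apart from all 15 others. TFEB was far lower and went the other way, at 8.64, 8.49 and 8.87 CPM in the uninduced and 8.11, 6.38 and 6.28 CPM in the induced libraries, a change of -0.32 ± 0.10 (edgeR, adjusted p = 0.0065). Per kilobase, induced 102xPR cells held 30.1 CPM of TFE3 and 1.23 CPM of TFEB. The mRNA level says nothing of where either protein lay in the cell.

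At the start of the pathway, ULK1 fell while its partner ATG101 rose. ULK1 (chr12:131894622-131923150), the kinase that starts autophagosome formation, was at 63.7, 60.4 and 58.8 CPM in the uninduced and 38.1, 38.2 and 38.7 CPM in the induced libraries, a change of -0.67 ± 0.05 (edgeR, adjusted p = 3.56e-11). All 3 induced values were below the 53.8 to 60.4 CPM of the other lines. ATG101, which stabilises the complex, was at 43.8, 39.8 and 39 CPM in the uninduced and 52.8, 50.8 and 54.8 CPM in the induced libraries, a change of 0.37 ± 0.06. ULK4 (chr3:41246599-41962103), a pseudokinase of the family without an assigned place in that complex, was at 3.76, 3.64 and 3.6 CPM in the uninduced and 5.74, 5.2 and 5.28 CPM in the induced libraries, a change of 0.56 ± 0.14. ATG13, ULK2 and ULK3 were at 0.10 ± 0.05, -0.20 ± 0.09 and -0.13 ± 0.06 and did not pass.

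In nucleation and lipid supply, ATG9A, WIPI1, ATG2A and WIPI2 fell and BECN1 rose. ATG9A (chr2:219219380-219229636), the lipid scramblase of the vesicles that seed the membrane, was at 143, 144 and 142 CPM in the uninduced and 77.7, 87.1 and 80.9 CPM in the induced libraries, a change of -0.80 ± 0.05 (edgeR, adjusted p = 4.42e-12). WIPI1 (chr17:68421281-68457496), which binds phosphatidylinositol 3-phosphate, was at 6.46, 6.97 and 5.81 CPM in the uninduced and 3.59, 3.48 and 2.69 CPM in the induced libraries, a change of -0.98 ± 0.14. In both genes the induced libraries were below all others. ATG2A, a lipid transfer protein, fell by 0.46, and WIPI2, which recruits the conjugation machinery, fell by 0.17. BECN1, the scaffold of the lipid kinase complex, rose by 0.23 from 43.6, 47.8 and 43.8 to 53.9, 53.7 and 51.5 CPM. ATG14 and ATG2B were both at 0.14, with SEs of 0.08 and 0.06, and ATG9B at 0.47 ± 0.38, and none of them passed.

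Of the conjugation genes that rose, ATG12 had the highest fold change. ATG12 (chr5:115828200-115841565), the ubiquitin-like protein joined to ATG5, was at 55.4, 54.6 and 54.7 CPM in the uninduced and 84, 79 and 84.2 CPM in the induced libraries, a change of 0.58 ± 0.05 (edgeR, adjusted p = 3.25e-10). All induced libraries exceeded the 52.3 to 61 CPM of the other lines. The E2-like ATG3 was at 0.20, the E1-like ATG7 at 0.31, and the ATG8 proteases ATG4C and ATG4B at 0.38 and 0.23, and all 4 passed. Their induced libraries were also above the other 15. The responses of ATG3, ATG7 and ATG4C also passed as higher than those in both other lines, and that of ATG4B in neither. ATG4B was at 0.22 ± 0.07 in the poly-adenylate line, which did not pass. Its 102xPR response differed by 0 ± 0.09 from the poly-adenylate and by 0.13 ± 0.09 from the ChFP response. ATG5, ATG10, ATG16L1, ATG16L2 and ATG4A had values from -0.12 to 0.11 and did not pass.

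ATG4D, an ATG8 protease, was the single member called in opposite directions in 2 lines. It was at 40.2, 41.5 and 39.8 CPM in uninduced and 33.5, 33 and 38.5 CPM in induced 102xPR libraries, and at 34.1, 34 and 30.7 and 40.6, 44.7 and 39.8 CPM in the poly-adenylate line. The ChFP line held 31.5, 31 and 34.2 CPM uninduced and 38.8, 40.2 and 31.4 CPM induced. It fell by 0.21 in the 102xPR line, at -0.21 ± 0.08 (edgeR, adjusted p = 0.0199), and rose in the poly-adenylate line, at 0.34 ± 0.08 (edgeR, adjusted p = 0.0421). The difference between the 2 responses was -0.56 ± 0.11 (edgeR, adjusted p = 0.000178). The 102xPR call was lost without induced replicate 1, induced replicate 2 or uninduced replicate 2, at -0.19, -0.17 and -0.20 (edgeR, adjusted p = 0.0729, 0.0964 and 0.0626). When the set was a covariate it was at -0.08 (edgeR, adjusted p = 0.331), and among the 10 libraries of 1 set at -0.07 (edgeR, adjusted p = 0.463).

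In the ATG8 family the members went different ways. GABARAPL1 (chr12:10212877-10223128) was at 36.8, 35.8 and 37.4 CPM in the uninduced and 63.7, 58 and 60.5 CPM in the induced libraries, a change of 0.73 ± 0.07 (edgeR, adjusted p = 4.82e-09). GABARAP was at 171, 155 and 156 CPM in the uninduced and 125, 117 and 129 CPM in the induced libraries, a change of -0.38 ± 0.08, and GABARAPL2 at 126, 127 and 126 CPM in the uninduced and 89.2, 86.1 and 96.2 CPM in the induced libraries, a change of -0.49 ± 0.06. Each of these 3 genes had its induced 102xPR libraries outside the range of the other 15, above it for GABARAPL1 and below it for the other 2. The summed level of the family was 451, 428 and 439 CPM in uninduced and 405, 389 and 410 CPM in induced cells.

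MAP1LC3B, the LC3 gene with the most counts, rose by 0.12 from 112, 106 and 116 to 121, 122 and 120 CPM, and the near-identical MAP1LC3B2 rose by 0.44, with reads that the counting may have split between the 2 genes. Both calls depended on single libraries. MAP1LC3B was lost without induced replicate 1 or 2 or uninduced replicate 2, at 0.11, 0.11 and 0.08 (edgeR, adjusted p = 0.053, 0.0607 and 0.143). It was also lost without a filter on low counts and with only the line's 6 libraries, at 0.10 and 0.12 (edgeR, adjusted p = 0.107 and 0.0518). MAP1LC3B2 was lost without induced replicate 1 or 2 or uninduced replicate 3, at 0.38, 0.37 and 0.34 (edgeR, adjusted p = 0.0743, 0.0851 and 0.0905), and when the set was a covariate, at 0.16 (edgeR, adjusted p = 0.379). Among the 10 libraries of 1 set neither passed, at 0.10 and 0.17 (edgeR, adjusted p = 0.18 and 0.543), which left 1 of 5 genes of the family rising.

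Several conjugation and ATG8 genes are textbook targets of ATF4 or CHOP, transcription factors of the integrated stress response. Of 10 such members, ATG3, ATG7, ATG12, BECN1 and MAP1LC3B rose, GABARAP and GABARAPL2 fell, and ATG5, ATG10 and ATG16L1 did not pass. These shares, 50% and 20%, stand against 34.0% and 33.4% of all genes tested, and the call of MAP1LC3B is the one that single libraries ended. Their median was 0.12, against -0.01 for all genes tested.

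**Figure D4:**
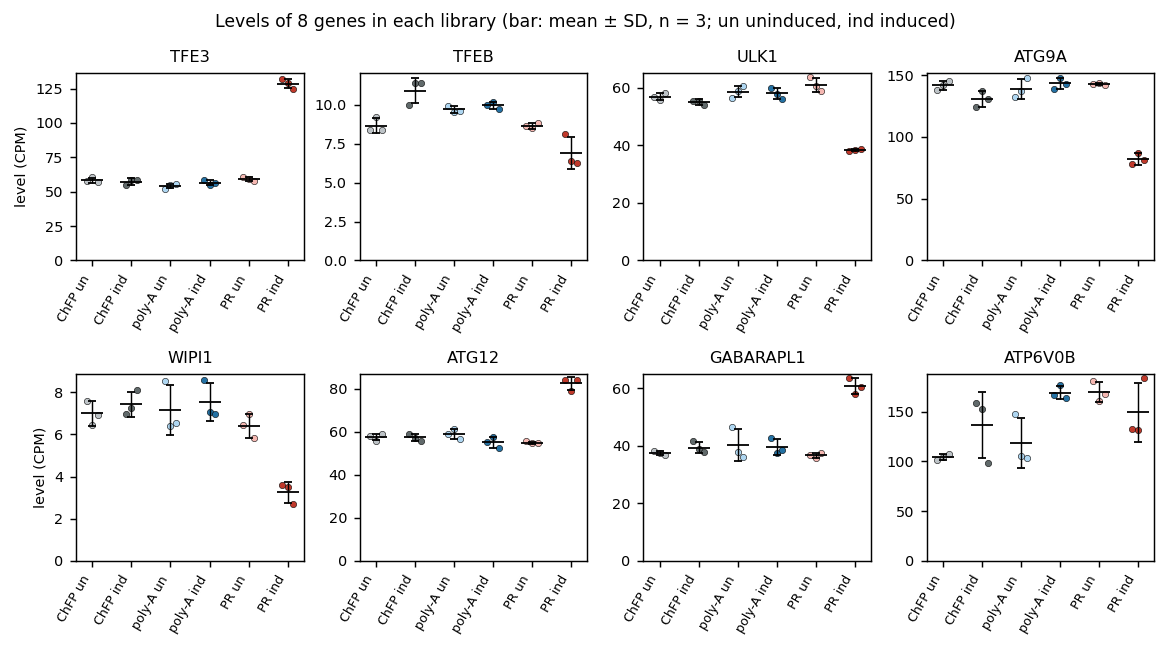
CPM of members that moved in different directions, in all 18 libraries by group (un, uninduced; ind, induced; poly-A, poly-adenylate; PR, 102xPR), with 1 point per library and bars for the mean and SD of 3 libraries. In TFE3, ATG12 and GABARAPL1 the 3 induced 102xPR points lie above all others, and in ULK1 and ATG9A they lie below.

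The other 12 members had too few counts to be tested. CTSO, ATP6V1G2, ATP6V1G3 and the readthrough ATP6V1G2-DDX39B had 0 counts among the 384981138 counts of all 18 libraries, which allows up to 0.00779 CPM each (3 counts, for counting error only). ATP6V1G2 lies within the locus of the readthrough, and the counting may have given shared reads to neither gene. The limit does not cover such reads. CTSE and CTSG had 1 count each, and ATP6V0A4, the a subunit of kidney intercalated cells, had 6. GABARAPL3, a transcribed pseudogene, had 10 counts, MAP1LC3A 18 and MAP1LC3C 54 over the 18 libraries. CTSW, a cathepsin of lymphocytes, had 38 counts, of which 22 were in the 3 induced and 3 in the 3 uninduced 102xPR libraries. ATP6V0D2, a d subunit of osteoclasts and kidney, had 21 counts, of which 12 and 2 fell in those groups. No test was made of these genes.

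In the ChFP control line, doxycycline with expression of the control protein moved no member past the threshold. By edgeR's test 0 of 64 members were called, and DESeq2 likewise called 0, while 2.04% of all genes tested were called, 1.04% higher and 1.00% lower. At an unadjusted p below 0.05 there were 11 members (17.2%) and 20% of all genes. The members' median was 0.02. All uninduced libraries of this line lay in the set of 8, and induced replicates 1 and 2 in the set of 10. Induction and library set are thus partly mixed here. With 1 library left out, 0 to 5 members were called higher. CTSS had the highest value, 1.39 ± 0.40, from 0.202, 0.164 and 0.294 CPM uninduced to 0.407, 0.552 and 0.741 CPM induced, and did not pass. TFE3 was at -0.03 ± 0.05, CTSD at 0.04 ± 0.06, ULK1 at -0.05 ± 0.05 and ATG9A at -0.12 ± 0.05.

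The poly-adenylate line gave 2 calls among 64 members, both upward, against a background of 0.815% higher and 0.274% lower (1.09% in all). ATG101 was at 34.8, 31.5 and 31.3 CPM in uninduced and 43.2, 41.2 and 39.4 CPM in induced libraries, a change of 0.34 ± 0.07 (edgeR, adjusted p = 0.0228). ATG4D was the other, as given. Uninduced replicates 2 and 3 of this line lay in the set of 8 and all other libraries of it in the set of 10. With the set as a covariate neither passed, at 0.25 ± 0.06 for ATG101 and 0.21 ± 0.07 for ATG4D (edgeR, adjusted p = 0.088 and 0.205). Leaving out any 1 library of the line other than uninduced replicate 1 also ended both calls, with values from 0.31 to 0.37 and adjusted p from 0.0747 to 0.134 for ATG101, and values from 0.29 to 0.38 and adjusted p from 0.083 to 0.211 for ATG4D (edgeR). The median of all members was 0.03, with CTSD at 0.15 ± 0.06, TFE3 at 0.07 ± 0.05 and ATG9A at 0.04 ± 0.05, none of which passed.

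The response to 102xPR differed from the response to the control protein in most members. The difference of responses was positive in 13 and negative in 32 of 64 members past the threshold (edgeR's test of the interaction), against 28.5% and 30.1% of all genes tested, 58.5% in all. The members' median difference was -0.33. Of the 48 members called within the 102xPR line, 42 were called in the same direction here. The difference contains the same 102xPR libraries that gave those calls, so this agreement is partly built in. The like share among all genes was not computed. CTSD differed by -0.83 ± 0.08, CTSH by -0.82 ± 0.09, ATP6V0E1 by -0.79 ± 0.07, ATG9A by -0.69 ± 0.07 and ULK1 by -0.62 ± 0.07. On the positive side TFE3 differed by 1.15 ± 0.07, ATG12 by 0.59 ± 0.07, GABARAPL1 by 0.66 ± 0.10 and ATP6V1E2 by 0.64 ± 0.14. The difference for CTSS, -2.92 ± 0.58, holds a fall in the 102xPR line and the uncalled higher value in the ChFP line. The library sets are spread unevenly over these groups. With the set as a covariate, 39 of the called differences held and 6 were lost.

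Against the poly-adenylate response the counts were the same in size, 13 positive and 32 negative, with a background of 29.1% and 29.5% (58.7% in all) and a median of -0.32. Both differences contain the same 102xPR libraries and are not independent of each other. For 40 of the 48 members the direction was called against both other lines, which again reuses the libraries behind the 48 calls. CTSD differed by -0.95 ± 0.08, ATP6V0E1 by -0.85 ± 0.07, ATG9A by -0.84 ± 0.07, TFE3 by 1.06 ± 0.07 and GABARAPL1 by 0.75 ± 0.10. ATG101 was at 0.02 ± 0.09, so that its rise in both lines gave no detected difference. When the library set was a covariate, 37 of the called differences from the poly-adenylate response held and 8 were lost.

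The poly-adenylate response did not differ detectably from the ChFP response in any member. Here 0 of 64 members were called by edgeR and 0 by DESeq2, against 0.0196% of all genes, and 5 members had an unadjusted p below 0.05. The smallest adjusted p was 0.281 (edgeR), and the members' values ran from -1.17 to 0.26. For CTSD the difference was 0.11 ± 0.08, for TFE3 0.09 ± 0.07 and for ULK1 0.03 ± 0.07.

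Before induction, 7 members were higher in the 102xPR line than in the ChFP line and 0 were lower by edgeR (DESeq2 0, and 2 at an unadjusted p below 0.05), against 7.19% and 5.11% of all genes (12.3% in all). They were ATP6V0B at 0.70, ATG101 at 0.36, ATG4B at 0.33, ATG4D at 0.33, CTSD at 0.24, ATP6V1H at 0.22 and ATP6V0C at 0.14 on the log2 scale. The uninduced ChFP libraries belong to the set of 8 and the uninduced 102xPR libraries to that of 10, in all 3 replicates. When the set was a covariate, 0 members were called higher. For these 2 groups line and set cannot be told apart by their own libraries. Between uninduced poly-adenylate and ChFP cells, edgeR and DESeq2 each called 0 of 64 members, against 0.104% of all genes, and 5 had an unadjusted p below 0.05.

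The set of 10 libraries holds all 3 uninduced but only replicate 3 of the induced 102xPR libraries, so a fit within it rests on 1 induced library. When the set was a covariate over all libraries, 15 members rose and 32 fell. In the main fit 34.0% of all genes tested rose and 33.4% fell, and the shares with the covariate were not computed. With the covariate the fall of cathepsin and LAMP genes was called in 12 of 13 genes, and that of V0 genes in 5 of 7. Cathepsin and LAMP counts stayed at 12 when any 1 library was left out. The share of counts on mitochondrially encoded mRNA differed between the sets and was lowest in induced 102xPR libraries in each. In the set of 10 it was 2.96% in the induced 102xPR library and 4.35% to 5.17% in the 9 others, and in the set of 8 it was 4.46% and 4.56% against 6.30% to 7.16% in the 6 others. Its part in the results was not tested.

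Other genes of the lysosome are given beside the same background, 33.4% of all genes tested falling and 34.0% rising in induced 102xPR cells. Among hydrolases other than cathepsins, 18 of 28 tested (64.3%) fell and 5 (17.9%) rose, with a median of -0.34. Among those that fell were LIPA (-0.69 ± 0.04), the acid lipase, and MAN2B1 (-0.55 ± 0.06), an α-mannosidase. Among lysosomal membrane, sorting and lumen proteins, 13 of 19 (68.4%) fell and 2 (10.5%) rose (median -0.33). GRN, the progranulin precursor, was at -0.82 ± 0.05, CD63, a tetraspanin, at -0.80 ± 0.05, TPCN1, a cation channel, at -0.80 ± 0.07 and SLC17A5, the sialic acid exporter, at -0.80 ± 0.08.

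Of 13 accessory and assembly genes of the pump 5 rose and 5 fell (38.5% each, median -0.02), near the 34.0% and 33.4% of all genes tested. VMA21, an assembly factor of V0, was at -0.50 ± 0.04 and ATP6AP2, an accessory subunit, at -0.60 ± 0.05, while NCOA7, a V1-binding protein, was at 0.62 ± 0.07 and WDR7, of the RAVE-like assembly complex, at 0.54 ± 0.08. Of 22 genes of mTORC1 and its lysosomal control 12 (54.5%) fell and 6 (27.3%) rose (median -0.18). RRAGD and RRAGA, Rag GTPases that recruit mTORC1 to lysosomes, were at -0.75 ± 0.06 and -0.48 ± 0.07, and TSC1 and FLCN, which restrain it or act on the Rag proteins, at 0.68 ± 0.06 and 0.46 ± 0.08.

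Autophagy genes outside the chosen symbols rose and fell in shares mostly near or below that background of 34.0% and 33.4%. Of 13 further genes of initiation and nucleation 5 (38.5%) rose and 3 (23.1%) fell, with UVRAG at 0.47 ± 0.05, AMBRA1 at 0.49 ± 0.06, TMEM41B, a scramblase, at -0.63 ± 0.05 and EI24 at -0.32 ± 0.04. Of 15 receptors that link cargo to ATG8 proteins 6 rose and 6 fell (40.0% each), with BCL2L13, a mitophagy receptor, at 0.92 ± 0.05, NCOA4, the ferritin receptor, at 0.59 ± 0.04, NBR1 at 0.46 ± 0.04 and RTN3, of the endoplasmic reticulum, at -0.57 ± 0.05. Of 13 tested fusion genes 2 (15.4%) rose and 5 (38.5%) fell, with VPS11 at 1.08 ± 0.07, TECPR1 at -0.82 ± 0.10, and the SNAREs VAMP8 and SNAP29 at -0.50 ± 0.08 and -0.22 ± 0.05. In the poly-adenylate and ChFP lines edgeR called 0 of 123 tested genes of these lists, with 21 and 16 at an unadjusted p below 0.05, and DESeq2 called 2 and 6.

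**Figure D5:**
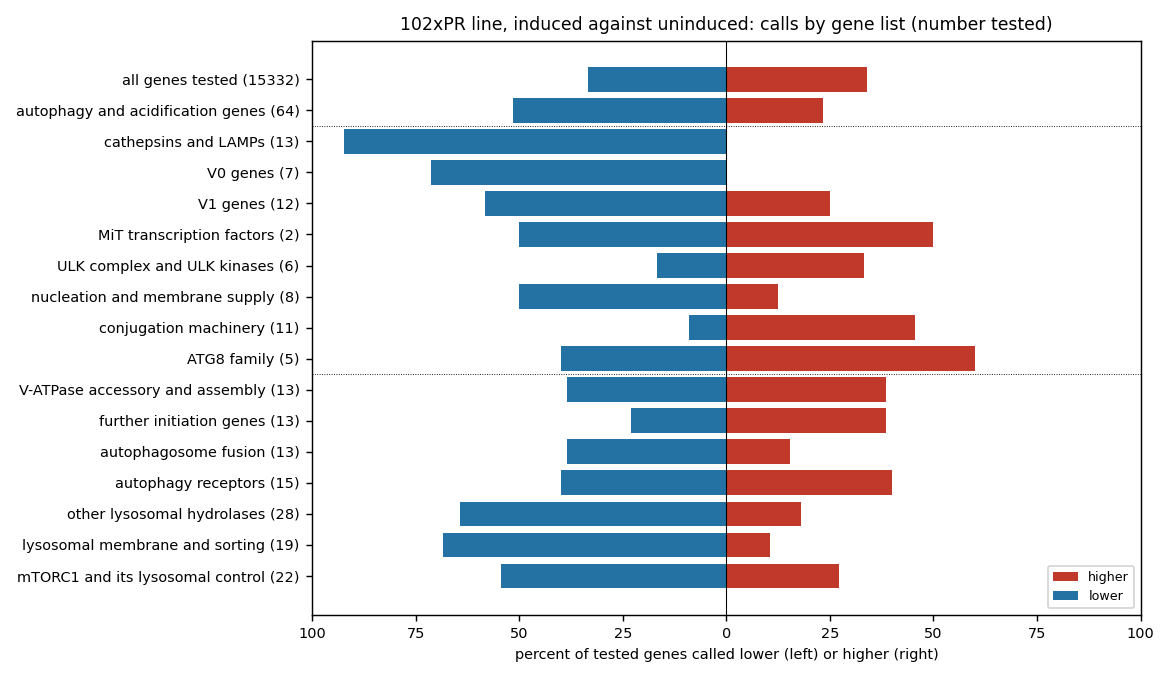
Percent of tested genes called higher (right) and lower (left) in the 102xPR line by edgeR, for each group of members and each list of other autophagy and lysosome genes, with all members and all genes tested for comparison. The cathepsin and LAMP bar reaches 12 of 13 genes on the lower side and 0 on the higher side.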

How the data were processed

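Poly(A) RNA from a detergent lysate made with cycloheximide was read as 100 bp single reads, per the labels' protocols. The authors deposited 1 table of whole-number counts per gene for the 18 libraries, with no normalization. Per the submitters' processing notes, the genome build was hg38 and the tools included HISAT2 2.1.0, cutadapt 3.4, bcl2fastq 2.20.0.422, DESeq2 1.30.1 and featureCounts. Not given in the sources used here are the annotation, strand setting and treatment of multi-mapping reads. The authors' comparison tables were not used here.

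From these counts, 550 rows without a symbol (0.041% of counts) were left out, filterByExpr (minimum count 10) kept 15332 genes, and edgeR 4.0.16 (R 4.3.3) fitted a robust quasi-likelihood model with TMM scaling and 1 term per group over all 18 libraries. P-values were adjusted by Benjamini-Hochberg (threshold 0.05) over all genes tested. CPM values use TMM library sizes, and an SE is the log2 fold change divided by the root of its F statistic. Exon lengths came from GENCODE, loci and promoters from RefSeq GRCh38.p14, whose promoter windows are used for letters only. Alternatives were DESeq2 1.42.0, RLE factors, other filters, a replicate block, a library-set covariate, fewer libraries and leaving out each library. Libraries of a group were checked for duplicates, and none agreed within sampling noise (chi-square per degree of freedom 1.89 to 17.7).

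The members and lists were chosen with earlier results of these data known. Values of every library are given for members called in the 102xPR line with groups that do not overlap and a log2 change of at least 0.5. They are also given for members called in opposite directions. Many other genes, such as LAMP1, TFEB and ATG101, are shown in this way outside that rule and were added after their values were seen. Genes outside the members are named as at most 4 per list, by smallest adjusted p.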

Additional observations from a re-analysis of the deposited data

Results flagged for a closer look

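Responses to induction that differed between lines by the interaction test (edgeR, all 18 libraries) are listed here with their values. Between the 102xPR and ChFP lines, 13 members had a higher and 32 a lower response in the 102xPR line. Differences of at least 1 on the log2 scale were found for TFE3 (1.15), ATP6V1FNB (1.38), WIPI1 (-1.06), ATP6V1B1 (-1.11), CTSK (-1.30) and CTSS (-2.92). TFE3 is the only one of these 6 above 10 CPM. CTSS had 0.202, 0.164 and 0.294 CPM in uninduced and 0.407, 0.552 and 0.741 CPM in induced ChFP libraries, so its difference is not that of the 102xPR line alone.

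Between the 102xPR and poly-adenylate lines, 13 members were higher and 32 lower. TFE3 differed by 1.06, ATP6V1FNB by 1.12, WIPI1 by -1.04 and CTSS by -1.75. ATG4D, called lower in the 102xPR line and higher in the poly-adenylate line, differed by -0.56. Both comparisons contain the same 102xPR libraries.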

How the results depend on the processing

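In the 102xPR line the counts of members called stayed at 14 to 17 higher and 29 to 35 lower under every alternative run (DESeq2, RLE factors, no filter, a minimum count of 50, replicate block, library-set covariate, 6 libraries only, set of 10), and at 13 to 16 higher and 32 to 34 lower with 1 library left out. With the library set as a covariate ATP6V0B turned to 0.16, and the 7 members higher in uninduced 102xPR than in uninduced ChFP cells became 0 (2 to 5 with 1 library left out). The 2 members higher in the poly-adenylate line became 0 with that covariate, 0 with only the line's 6 libraries and 0 within the set of 10 (0 to 6 with 1 library left out). The ChFP line gave 0 to 5 members higher with 1 library left out. With 1 library left out, the difference from the ChFP response gave 10 to 14 higher and 31 to 34 lower. That from the poly-adenylate response gave 10 to 13 and 30 to 34. With the covariate, 6 calls of the first difference and 8 of the second were lost. The replicate block gave 1 member higher in the ChFP line in place of 0, and 17 higher and 33 lower in the 102xPR line; same-numbered libraries deviated together with correlations of only -0.01 to 0.16, so the numbers were not shown to pair. Group counts in the 102xPR line, whose alternatives were chosen after seeing the data as was the set of 8, moved as follows. ULK genes lower went from 1 to 3 without a filter and 2 with only the line's libraries (1 to 2 with 1 left out). Nucleation genes higher went from 1 to 2 with a minimum count of 50, the replicate block and the set of 10 (1 to 2). Conjugation genes lower went from 1 to 0 with the covariate and within the set of 10 (0 to 1). ATG8 genes higher went from 3 to 1 within the set of 10 (1 to 3), and to 2 without a filter, with the covariate and with only the line's libraries. ULK genes higher went from 2 to 3 with DESeq2, RLE factors, a minimum count of 50 and the replicate block. V1 genes lower went from 7 to 5 within the set of 10, where ATP6V1A and ATP6V1H were lost, and cathepsin and LAMP genes lower from 12 to 11. A minimum count of 50 gave 6 V1 genes lower, 2 higher in place of 3, and 10 cathepsin and LAMP genes lower; with the covariate V0 genes higher went from 0 to 1, by ATP6V0B. Beyond the smaller sets of libraries or genes, the cause of each change was not tested. RLE scaling moved the median of all genes by at most 0.01 on the log2 scale. Members under 2 CPM rest on few counts and have the largest errors.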
